A study of Mus musculus with 8 samples.

Results

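Integrins are receptors made of an α and a β subunit that tie cells to the extracellular matrix, and laminins are trimers of an α, a β and a γ chain that form much of the basement membrane under an epithelium. Some integrins with β1 and those with β4 hold epithelial cells on laminin, whereas those with αv, β3 or β6 bind matrix proteins through a short RGD peptide. Other integrins with β1 bind collagen or fibronectin. Some RGD receptors also release TGF-β from its latent form, and epithelial-mesenchymal transition (EMT), in which epithelial cells take on mesenchymal features, is known to change which integrins a cell uses. Chromatin accessibility at these genes was examined in peak lists from formaldehyde-assisted isolation of regulatory elements (FAIRE-seq), an assay that recovers DNA free of crosslinked protein.

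The genes were all protein-coding genes of the GENCODE annotation of the mouse genome (mm10) with an integrin subunit name (*Itga* or *Itgb*) or a laminin chain name (*Lama*, *Lamb* or *Lamc*). There were 39 such genes among 21951, of which 28 were integrin genes and 11 laminin genes. The integrin-related genes *Itgb2l* and *Itgbl1* match the naming rule and were kept, and genes of integrin-binding proteins were not. A locus was the gene with 20 kb on either side. The cells were EpH4, a mouse mammary gland epithelial line not transformed with H-Ras, and EpRas, the H-Ras-transformed derivative of that line. Each line was left untreated or given 1 ng/ml TGF-β3 (TGF-β) for 8 days, with 2 replicate libraries in each of the 4 groups. The medium held 10% serum for EpH4 and 4% for EpRas, so that Ras and serum cannot be told apart in a comparison of the lines. The study's methods call the replicates biological, and the labels add no more on which cultures they came from.

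The 8 lists held 10821 to 27337 peaks, the fewest in TGF-β-treated EpH4 replicate 2 and the most in TGF-β-treated EpRas replicate 1. No read counts were in the lists, so depth was unknown, and a site that missed the peak caller's limit was not distinguishable from a closed one. Because a longer list holds more peaks at almost any gene, each comparison was also made with the 10821 highest-scoring peaks of each library, called lists of equal length here. Peaks at the promoters of cell type markers were checked. Of 6 epithelial markers, 4 had a promoter peak in at least 1 library, with *Krt14* in all 8 and *Krt5* and *Epcam* in 0. *Krt8* had one in 5 libraries, *Cdh1* in 4 and *Krt18* in 3. Of 5 leukocyte markers only *Cd68* had one, in 3 libraries, and *Ptprc*, *Spi1* and *Cd3e* had 0. Of 3 fibroblast markers 2 had one, *Pdgfra* in 4 libraries and *Col1a1* in 2, and of 3 endothelial markers 0 did.

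The peaks of the 8 lists merged into 37230 regions, and 175 of them lay in the 39 loci. Sequences of 5 of these regions follow, because their library patterns carry the differences described below. Each is the 300 bases around the midpoint of the region, on the plus strand of mm10, taken from the GRCm38.p6 sequence. Capitals mark matches on either strand to TGAGTCA (AP1), to ACGGAAA or else ACGGAAG, further to CCGGAAA and likewise to CCGGAAG (ETS) and to TGTGGTT (RUNX), none of which overlap each other in these windows. A match is a description of the letters and does not show that a factor was bound.

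The region upstream of *Itga5* (chr15:103378354-103378653) was called in every TGF-β-treated library and in 0 untreated ones. It held 1 ETS match.
Itga5 upstream: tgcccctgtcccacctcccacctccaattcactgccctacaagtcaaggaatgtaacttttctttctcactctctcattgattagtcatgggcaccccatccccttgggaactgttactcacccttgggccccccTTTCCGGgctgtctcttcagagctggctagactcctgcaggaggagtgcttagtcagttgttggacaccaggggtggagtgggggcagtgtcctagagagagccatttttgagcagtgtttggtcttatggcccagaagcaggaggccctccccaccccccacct

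An intronic region of *Itgb5* (chr16:33836695-33836994) was called in every library except both TGF-β-treated EpRas ones, also with lists of equal length, and held 1 AP1 match.
Itgb5 intron: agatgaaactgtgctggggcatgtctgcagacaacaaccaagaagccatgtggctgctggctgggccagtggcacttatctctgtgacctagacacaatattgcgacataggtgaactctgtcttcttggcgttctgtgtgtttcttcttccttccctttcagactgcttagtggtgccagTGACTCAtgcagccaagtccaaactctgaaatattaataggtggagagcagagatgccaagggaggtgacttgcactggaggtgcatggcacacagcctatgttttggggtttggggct

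The region upstream of *Itgb1* (chr8:128666791-128667090) was called in every library except both untreated EpH4 ones. It held 1 AP1 match.
Itgb1 upstream: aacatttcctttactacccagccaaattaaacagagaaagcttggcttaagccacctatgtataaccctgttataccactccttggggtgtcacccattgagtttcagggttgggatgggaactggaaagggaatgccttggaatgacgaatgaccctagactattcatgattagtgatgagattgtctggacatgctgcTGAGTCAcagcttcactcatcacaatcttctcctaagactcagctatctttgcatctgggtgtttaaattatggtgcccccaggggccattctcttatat

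A region at a coding exon of *Itgb3* (chr11:104640934-104641233) was called in every TGF-β-treated library and in untreated EpRas replicate 1, and with lists of equal length in the 4 treated libraries alone. It held 1 AP1 match.
Itgb3 coding exon: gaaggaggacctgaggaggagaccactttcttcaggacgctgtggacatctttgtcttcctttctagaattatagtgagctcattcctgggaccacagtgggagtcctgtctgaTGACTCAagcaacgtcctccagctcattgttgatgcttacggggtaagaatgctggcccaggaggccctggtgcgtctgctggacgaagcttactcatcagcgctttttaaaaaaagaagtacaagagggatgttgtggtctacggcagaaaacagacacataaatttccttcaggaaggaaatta

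An intronic region of *Itgb3* (chr11:104622581-104622880) was called by both treated EpRas libraries and by 0 others. It held 1 AP1 and 1 RUNX match.
Itgb3 intron: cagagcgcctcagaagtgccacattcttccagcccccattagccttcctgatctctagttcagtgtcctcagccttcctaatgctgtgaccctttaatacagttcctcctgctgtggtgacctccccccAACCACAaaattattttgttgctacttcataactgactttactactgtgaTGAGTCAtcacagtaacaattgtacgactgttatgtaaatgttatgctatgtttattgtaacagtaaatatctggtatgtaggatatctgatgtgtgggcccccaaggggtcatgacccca

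Of the 39 loci, 34 had a peak in at least 1 library and 21 had one in all 8. Among all protein-coding loci, 28.2% had no peak in any library and 29.3% had a peak in all 8. The 5 loci without a peak were *Lama1*, *Itgb8*, *Itga4*, *Itgax* and *Itgb2l*. *Lama1* encodes a laminin chain of early embryos, *Itgb8* a partner of αv that releases TGF-β, and *Itga4* and *Itgax* encode subunits best known from leukocytes. Integrin and laminin loci held 54 to 126 peaks per library, which was 46.1 to 54.1 of every 10000 peaks. These shares overlapped between the lines and between the treatments. Lists of equal length gave 51 to 57 peaks at these loci in every library.

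A peak was assigned to a promoter when its midpoint lay within 2 kb of an annotated transcription start site. Only *Itga3*, which encodes the α subunit of the α3β1 laminin receptor, and *Itgb2*, which encodes the β subunit of leukocyte integrins, had a peak at their own promoter in all 8 libraries, against 10.6% of all protein-coding genes. In 24 of the 39 genes the own promoter was called in 0 libraries, against 57.5% of all genes. The 2 genes did not keep this under other settings: with lists of equal length only *Itgb2* was called in all 8 libraries, and with a promoter window of 1 kb neither was. Of the 175 regions, 53 were promoter regions of any gene (30.3%, against 31.7% of all regions), and 19 of these lay at the promoter of an integrin or laminin gene. Introns held 84 of the 175 regions (48.0%) against 34.3% of all regions, intergenic sequence held 30 (17.1%) against 31.8%, and coding exons held 5 (2.86%) against 0.567%. The loci were drawn around coding genes, which favors sequence inside genes by construction. Windows drawn around other coding genes were not compared, so these shares do not set integrin and laminin genes apart.

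**Figure D1:**
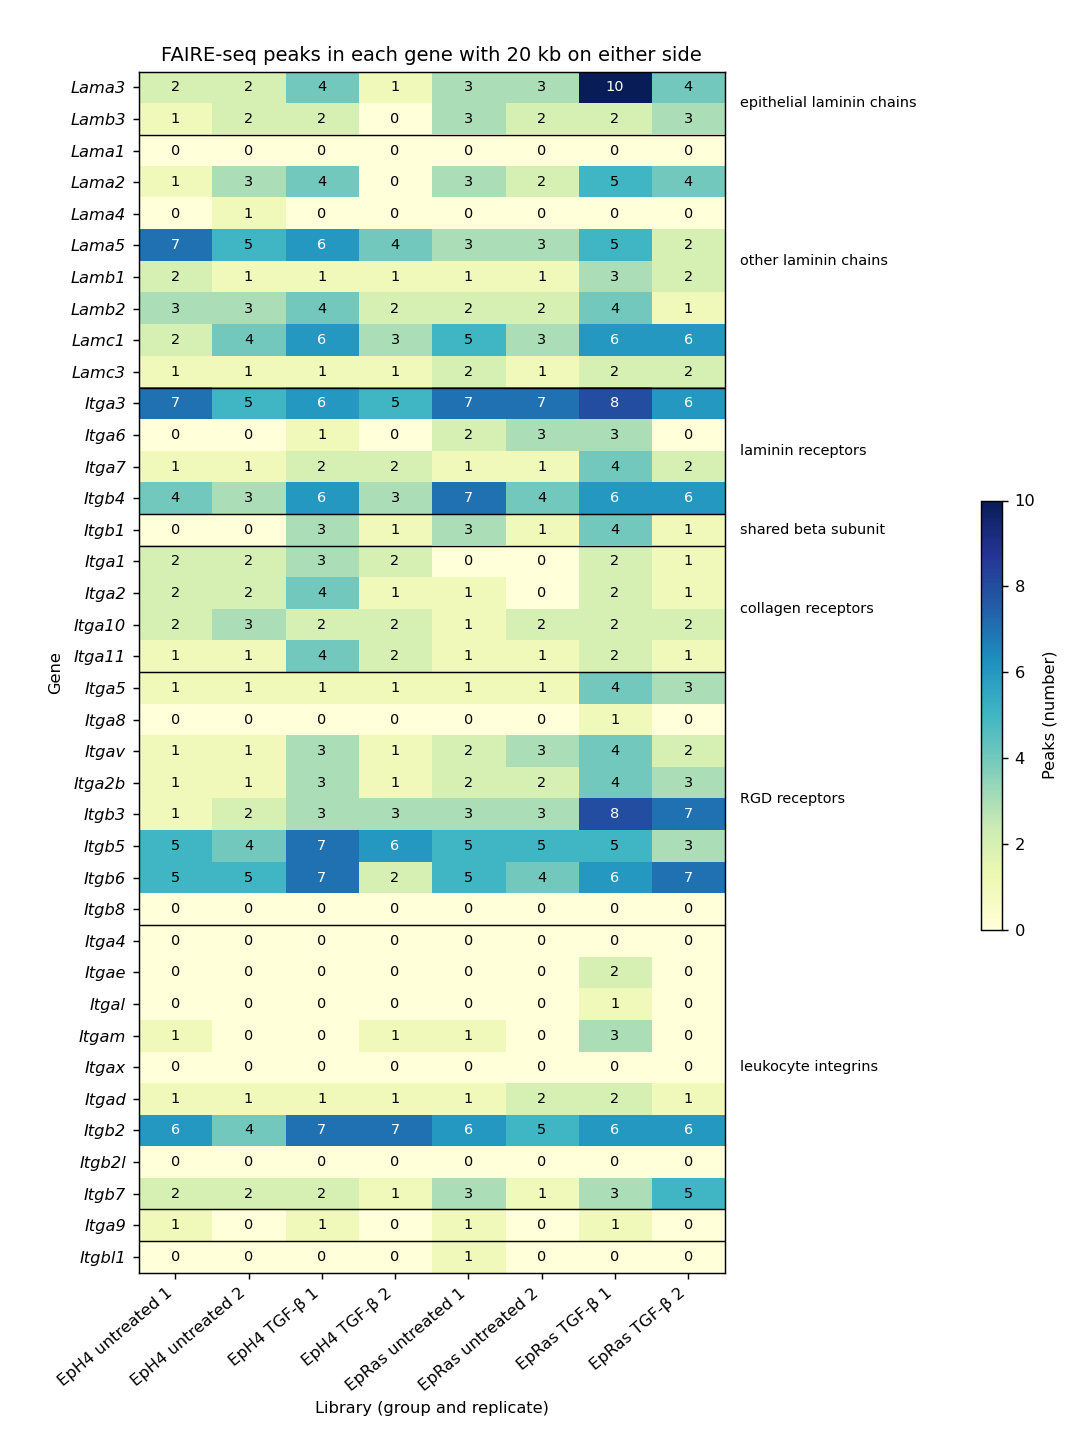
Number of FAIRE-seq peaks (color and digits) in each of 38 loci (rows, grouped by role) in each of the 8 libraries (columns). *Lama3* reached 10 and 4 peaks in TGF-β-treated EpRas cells, and 5 rows were at 0 throughout.

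Among laminin genes, *Lama3* and *Lamb3* encode chains of laminin-332, the ligand on which epithelial cells form hemidesmosomes. *Lama3* held 2 and 2 peaks in EpH4 cells without TGF-β, 4 and 1 with it, 3 and 3 in EpRas cells without it and 10 and 4 with it, replicates 1 and 2 each time. *Lamb3* held 1 and 2, 2 and 0, 3 and 2, and 2 and 3 peaks in the same order. For *Lama3* both TGF-β-treated EpRas libraries thus lay above both untreated EpRas libraries, while the treated EpH4 libraries lay on either side of the untreated ones. In lists of equal length *Lama3* had 2 and 2 peaks in untreated and 3 and 1 in treated EpRas cells, so that the groups overlapped.

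Of the other laminin genes, *Lama5*, which encodes the α chain of laminin-511 in many adult epithelia, held 7 and 5 peaks in EpH4 cells without TGF-β, 6 and 4 with it, 3 and 3 in EpRas cells without it and 5 and 2 with it. The remaining chains with a peak ranged from 0 to 1 peaks per library at *Lama4* to 2 to 6 at *Lamc1*, the γ chain gene of most laminins. Of the 175 regions, 4 lay in the windows of 2 neighboring loci.

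The laminin receptors *Itga3*, *Itga6*, *Itga7* and *Itgb4* ranged from 0.736 peaks per 100 kb at *Itga6* to 8.81 at *Itga3* (mean over the 8 libraries), against a median of 1.59 for all integrin and laminin loci with a peak and 1.57 for all loci with a peak. *Itga3* held 7 and 5 peaks in EpH4 cells without TGF-β, 6 and 5 with it, 7 and 7 in EpRas cells without it and 8 and 6 with it, and it was the densest of the 39 loci. *Itgb4*, which encodes the hemidesmosome subunit that pairs with α6, held 4 and 3, 6 and 3, 7 and 4, and 6 and 6 peaks. Neither locus separated the lines or the treatments. Of the 10 regions at each of these loci, 1 lay in the gene body. At *Itga3* another 2 were promoter regions of the gene itself, and others were promoter regions of its neighbor *Pdk2*. At *Itgb4* several lay in its neighbor *Sap30bp* or at the promoters of *Galk1* and *H3f3b*. The densities are thus those of the windows and not of the genes alone. *Itga6* held 0 and 0 peaks in EpH4 cells without TGF-β, 1 and 0 with it, 2 and 3 in EpRas cells without it and 3 and 0 with it. Its EpRas libraries were thus higher except for TGF-β-treated replicate 2 (two-sided p = 0.143 by the exact permutation test over 4 against 4 libraries). *Itgb1*, the β subunit that most of these receptors share, held 0 and 0, 3 and 1, 3 and 1, and 4 and 1 peaks, with both untreated EpH4 libraries at 0.

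Among the RGD receptors, *Itgb3*, the β subunit of αvβ3, held 1 and 2 peaks in EpH4 cells without TGF-β, 3 and 3 with it, 3 and 3 in EpRas cells without it and 8 and 7 with it. The treated libraries were above the untreated ones within either line, but in EpRas cells the groups overlapped with lists of equal length, at 3 and 4 peaks with TGF-β and 1 and 3 without. *Itga5*, the α subunit of the fibronectin receptor α5β1, held 1 peak in each of the 6 libraries of the other groups and 4 and 3 in treated EpRas cells, which became 1 and 2 with lists of equal length and overlapped the others. *Itgav*, the α subunit shared by several of these receptors, held 1 and 1, 3 and 1, 2 and 3, and 4 and 2 peaks, and its groups overlapped.

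*Itgb6*, an epithelial partner of αv that releases latent TGF-β, held 5 and 5, 7 and 2, 5 and 4, and 6 and 7 peaks. *Itgb5*, another partner of αv, held 5 and 4, 7 and 6, 5 and 5, and 5 and 3. In *Itgb5* the treated libraries were thus higher than the untreated ones in EpH4 cells and not in EpRas cells. *Itgb8* held 0 peaks in every library.

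Among the collagen receptors, *Itga2* held 2 and 2 peaks in EpH4 cells without TGF-β, 4 and 1 with it, 1 and 0 in EpRas cells without it and 2 and 1 with it. *Itga1* held 2 and 2, 3 and 2, 0 and 0, and 2 and 1. *Itga10* held 2 and 3, 2 and 2, 1 and 2, and 2 and 2. Summed over the 4 collagen receptors, EpH4 libraries had 7 to 13 peaks and EpRas libraries 3 to 8, which overlapped. The windows of *Itga1* and *Itga2* shared 2 regions, and peaks there were counted at both genes in these sums. Of the 9 leukocyte integrin genes, 6 had a peak in any library, and *Itgb2* held 4 to 7 peaks in every library, in the epithelial cells examined here. Promoter peaks of the leukocyte markers were found in 0 or 1 per library, and their part in the *Itgb2* peaks was not tested. The *Itgb2* window also held the promoters of its neighbors *Fam207a* and *Pttg1ip*. At *Itgad*, *Itgae* and *Itgal* every region was a promoter region of another gene. The *Itgb7* region called in every library lay at the promoter of *Zfp740*.

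To ask whether Ras transformation changed the number of peaks at these genes, the 4 EpRas libraries were compared with the 4 EpH4 libraries. A locus was called when all libraries of 1 side lay above all of the other, which gives the smallest p-value of the exact permutation test with 4 against 4 (two-sided, p = 0.0286). Of the 34 loci tested, 0 were called higher in EpRas cells, against 4.27% of all 15756 loci with a peak, and 0 were called lower, against 0.552%. The smallest p-value among the 34 was 0.0857 (exact permutation test), for *Lama5*, with 3.25 peaks per EpRas library and 5.50 per EpH4 library. After Benjamini-Hochberg adjustment over all 15756 loci no locus of the genome passed 0.05, with a smallest adjusted p of 0.593 (exact permutation test), and 759 loci had an unadjusted p under 0.05. With replicate numbers as a block 1 locus, *Lama5*, was lower in EpRas cells (0.850% of all loci). Per 10000 peaks of the list, 5 were lower, namely *Lama5*, *Lamb2*, *Itga1*, *Itga2* and *Itga11* (5.50% of all loci). With this measure 0 were higher, and no share of all loci is given beside that count. For the same number of peaks the measure is lower in a longer list, and *Itga1* and *Itga2* share some of their regions. Without TGF-β-treated EpH4 replicate 1, the longest EpH4 list, 3 loci were higher in EpRas cells, and without TGF-β-treated EpRas replicate 1, the longest list, 2 were lower. Leaving out a library loosens the criterion at every locus. No share of all loci is given for these counts, so they do not set these genes apart.

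With lists of equal length 30 loci had a peak. *Lama5*, *Itga1* and *Itga10* were then lower in every EpRas library, against 2.26% of 14007 loci, and *Itga2b*, which encodes the platelet receptor subunit αIIb, was higher, against 2.21%. *Lama5* had 7, 5, 4 and 4 peaks in EpH4 libraries and 0, 2, 3 and 1 in EpRas libraries. *Itga1*, a collagen receptor subunit, had 1, 1, 1 and 2 against 0 in each EpRas library, *Itga10*, another, had 2, 3, 2 and 2 against 1 in each, and *Itga2b* had 1 in each EpH4 library against 2, 2, 2 and 3. These 4 loci did not overlap between the lines (exact permutation test, p = 0.0286 each, unadjusted). Some of the peaks counted at *Itga1* and *Itga10* lay at promoters of other genes. They included the region 11.7 kb into *Itga1* and the regions 15.7 and 10.2 kb upstream of *Itga10*. The own promoters of *Itga1* and *Itga10* were called in 0 libraries.

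The surrounding chromosome moved with 3 of these 4 loci. In the 5 Mb on either side of *Itga1*, outside the locus itself, EpRas lists had 10.9 to 23.0 of every 10000 peaks and EpH4 lists 40.7 to 48.1. Around *Itga10* the values were 56.4 to 58.1 and 83.2 to 91.5, and around *Lama5* 20.8 to 30.8 and 31.3 to 38.2. Around *Itga2b* they overlapped, at 117 to 142 and 107 to 124. Of the 34 loci with a peak, 14 lay in a neighborhood that was higher in all EpRas than in all EpH4 libraries, *Itga6* included. A further 8 lay in a lower one, *Itga2*, *Itga11* and *Itgb5* included. The part of such wider differences in the locus counts was not tested.

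**Figure D2:**
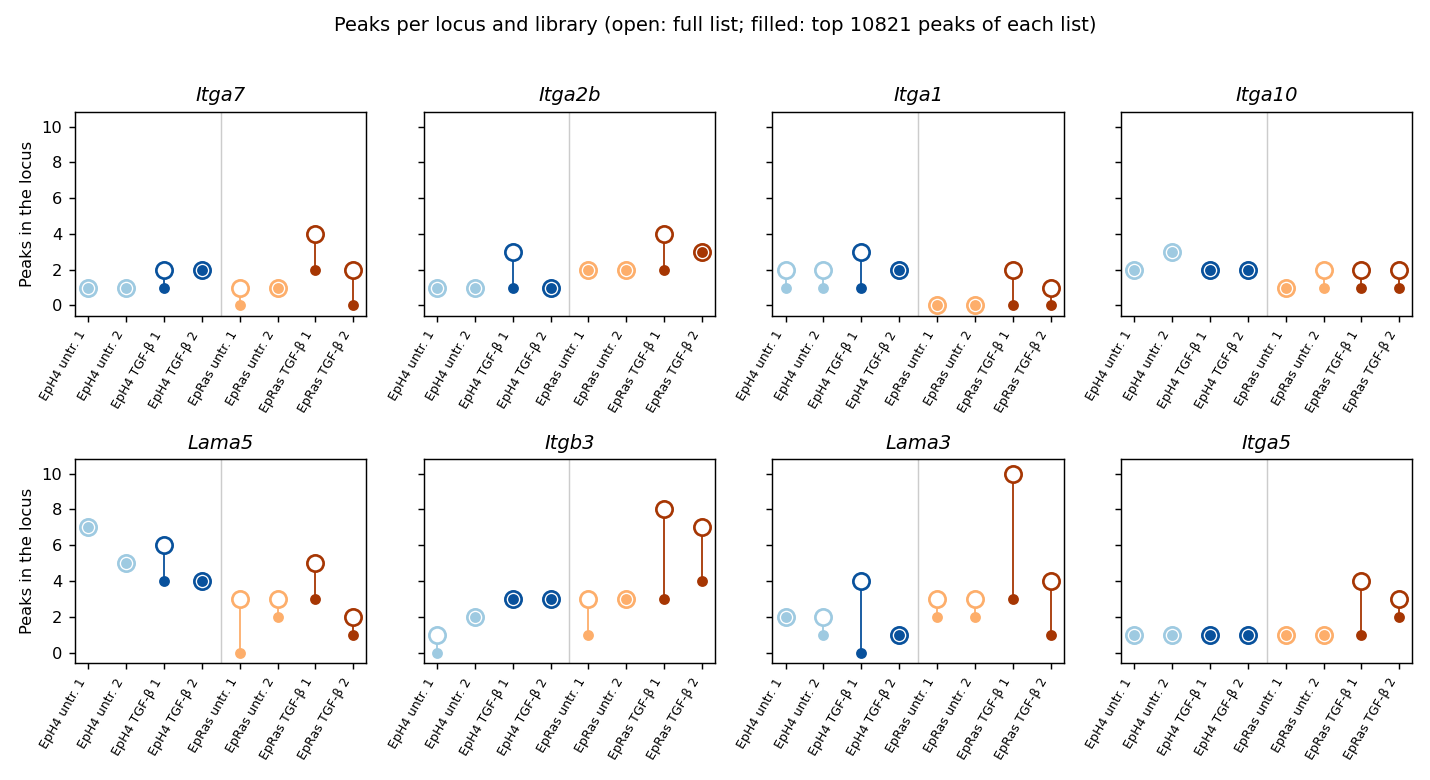
Peaks in 8 loci (y axis, number) in each library (x axis) with full lists (open circles) and with the 10821 highest-scoring peaks of each list (filled circles), blue for EpH4 and orange for EpRas. *Itgb3* and *Lama3* had 4 to 10 peaks in TGF-β-treated EpRas cells with full lists and 1 to 4 with lists of equal length, whereas at *Lama5*, *Itga1* and *Itga10* the lines no longer overlapped.

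TGF-β-treated libraries were compared with untreated ones over both lines. *Itga7*, the α subunit of the laminin receptor of muscle, was higher in all 4 treated libraries, with 2 and 2 peaks in EpH4 and 4 and 2 in EpRas cells against 1 in every untreated library (two-sided p = 0.0286 by the exact permutation test, and 1 after adjustment). It was the only one of 34 loci, against 0.394% of all loci, and 0 loci were lower, against 0.0444%. Of the 5 regions at this locus 0 lay in the gene body and 3 were promoter regions of its neighbors *Rdh5* and *Bloc1s1*, and with a flank of 2 kb 0 loci were called. In lists of equal length *Itga7* held 1 and 2 peaks in treated EpH4 cells and 2 and 0 in treated EpRas cells, and 0 loci were called higher (0.228% of all loci) or lower (0.321%). By the unadjusted exact permutation test 1 of the 34 loci, *Itga7*, had p under 0.05. Without TGF-β-treated EpH4 replicate 2, the shortest list, 6 of the loci were higher with TGF-β, and without TGF-β-treated EpRas replicate 2 there were 2. The criterion was again looser at every locus, and no share of all loci is given beside these counts.

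Within EpRas cells the 2 treated libraries lay above the 2 untreated ones at 11 of the 34 loci, against 12.0% of all loci, and below them at 0, against 1.27%. Among the 11 were the laminin genes *Lama2*, *Lama3*, *Lamb1* and *Lamc1* and the integrin genes *Itga1*, *Itga2b*, *Itga5*, *Itga7*, *Itgb3* and *Itgb6*. With 2 libraries against 2 no p-value under 0.333 is possible by the exact permutation test, and this comparison within a line was added after the values were seen. The list of TGF-β-treated EpRas replicate 1 was the longest of all. With lists of equal length 0 loci were higher (4.88% of all loci) and 2 were lower, *Itgav* and *Lamc1* (7.29%). Within EpH4 cells 6 loci were higher with TGF-β, against 6.13% of all loci, namely *Itga7*, *Itga11*, *Itgb1*, *Itgb2*, *Itgb3* and *Itgb5*. All of these except *Itga7* stayed higher with lists of equal length (5 loci, against 5.44%). With these lists 3 loci were lower in treated EpH4 cells, *Lama5* and *Itgb6* among them, against 5.71% of all loci. Whether EpRas and EpH4 loci responded differently to TGF-β was not tested.

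The same comparisons were made region by region. Of the 175 regions, 21 were called in all 8 libraries (12.0% against 11.4% of all regions), and 48 were called in 1 library only (27.4% against 31.6%). No region was called in all 4 EpRas and 0 EpH4 libraries, against 1.98% of all regions (1.12% with lists of equal length, again with 0 here). A region at the *Lama5* locus was the only one called in all EpH4 and 0 EpRas libraries, against 0.752%, and it had the same pattern in lists of equal length, shared by 1.55% of all regions there. It was a promoter region of a neighboring gene and not of *Lama5*, and lay in the lower neighborhood described above.

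A total of 1 region was called in all TGF-β-treated and 0 untreated libraries, against 0.320% of all regions. This was the region 11.7 kb upstream of *Itga5* (chr15:103378278-103378729), near the start site of the noncoding gene *Gm37322*. Its score ranked at the 77.5th percentile of the lists on average over the 4 libraries that called it, and its pattern was kept with lists of equal length. In treated EpH4 cells it was the only region called at the *Itga5* locus. At equal list length the coding exon region of *Itgb3* had the same pattern, so that 2 regions were called in every treated library alone, against 0.244%. No region was called in all untreated and 0 treated libraries, against 0.0188% (0.136% and again 0 here for lists of equal length).

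**Figure D3:**
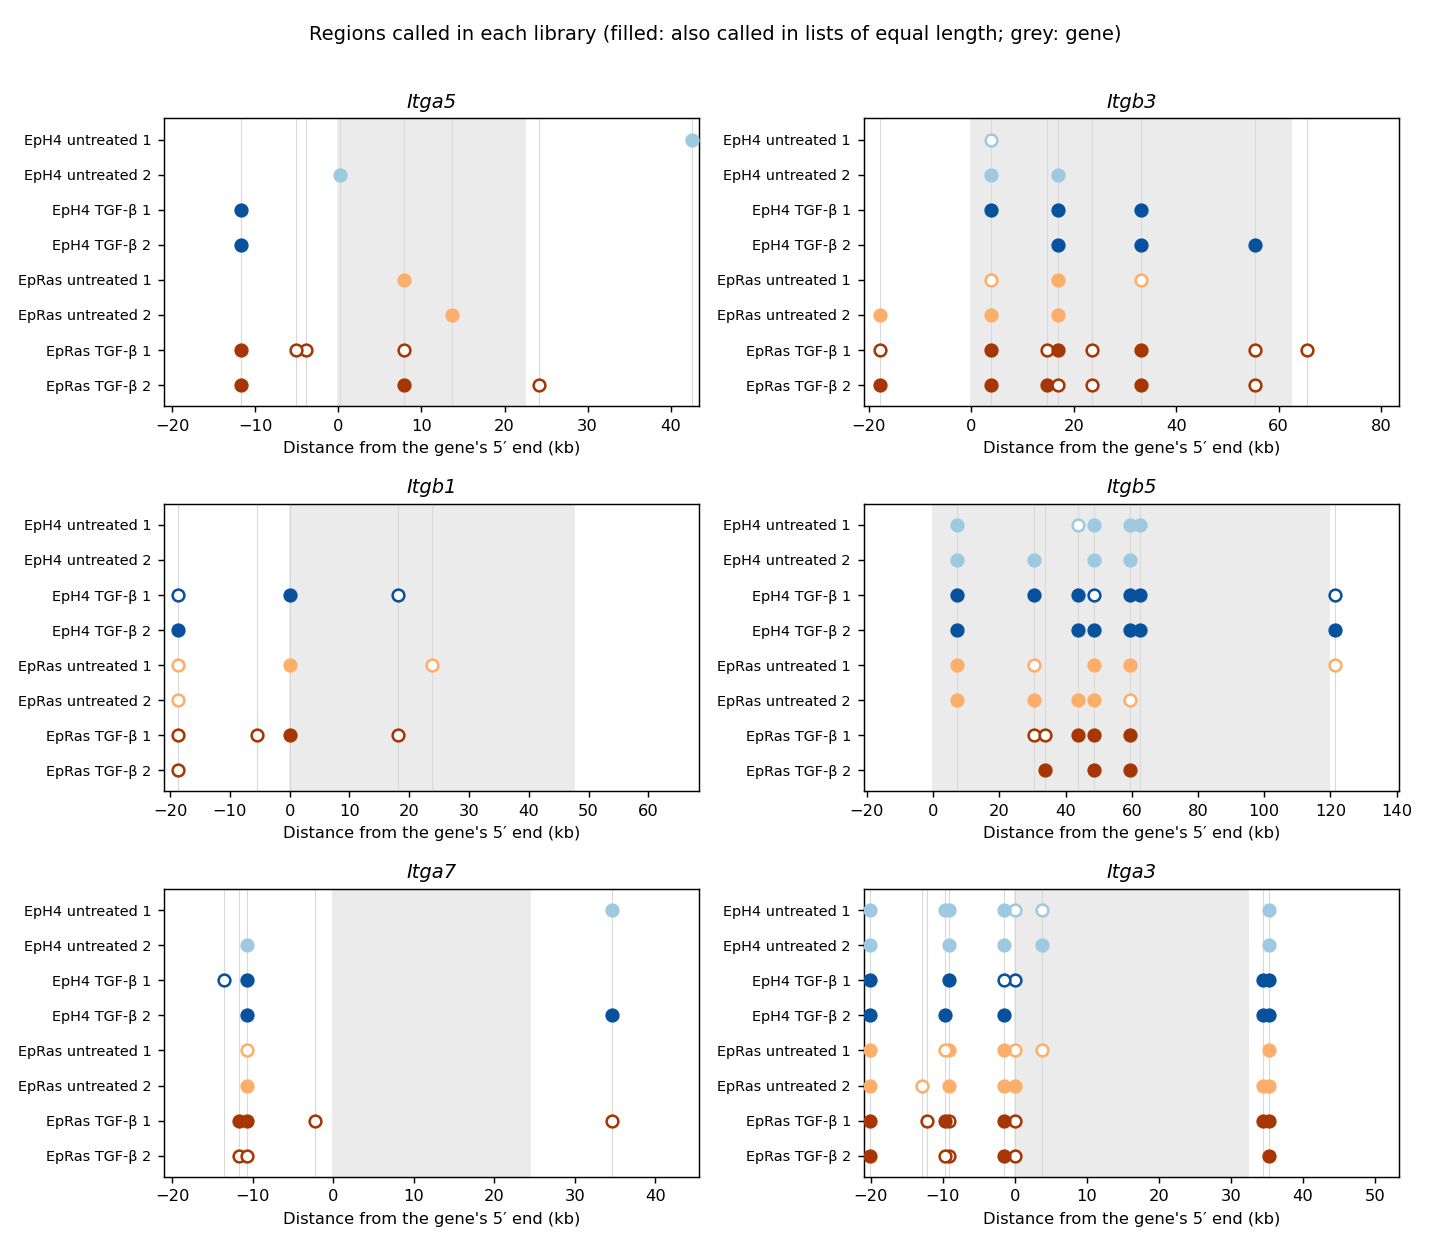
Regions called in each library (rows) by distance from the 5′ end of the gene (x axis, kb) at 6 loci. Grey marks the gene, open circles are calls of the full lists and filled circles calls that remained with lists of equal length. The column of 4 circles 11.7 kb upstream of *Itga5* is in treated libraries alone, and the first *Itgb5* column, 7.18 kb into the gene, is missing in both treated EpRas libraries.

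In EpRas cells 17 regions were called in both treated and 0 untreated libraries, against 7.64% of all regions, and 2 were lost, against 0.927%. In EpH4 cells 10 regions were gained, against 3.27%, and 3 were lost, against 1.68%. The *Itga5* region was the only one gained in both lines. Of the 10 regions gained in EpH4 cells, 8 were also called in at least 1 EpRas library. They included the region 18.7 kb upstream of *Itgb1* (chr8:128666620-128667261) and an intronic region of *Lama3*, both called in every library except the untreated EpH4 ones, a pattern of 0.693% of all regions. At equal list length the *Itgb1* region was called in treated EpH4 replicate 2 alone. Gains in these lists fell from 17 to 4 in EpRas cells (4.02% of all regions) and from 10 to 6 in EpH4 cells (3.48%), and losses were 3 in EpRas (3.23%) and 3 in EpH4 cells (3.18%).

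Among the 17 gained in EpRas cells, 11 were found with TGF-β in both EpRas replicates and nowhere else, against 4.21% of all regions. They lay in 9 loci, among them *Itgb3* with 2 regions and, with 1 each, *Lamc1*, *Lamc3*, *Lamb1*, *Lama3*, *Itga7*, *Itga2b* and *Itgb5*. Introns held 9 of the 11, and the remaining regions were promoter regions of *Bloc1s1* and *Aif1l*, neighbors of *Itga7* and *Lamc3*. The *Itgb3* regions were 14.7 and 23.5 kb into the gene (chr11:104622588-104622873 and chr11:104631404-104631662). The regions were weak, with mean percentiles of the score from 15.1 to 53.7. In lists of equal length 0 of the 11 were called in both of these libraries, 6 were called in 1 and 5 in neither. Another region took on the pattern there, so that it was held by 1 region at these loci and by 1.87% of all regions.

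In the opposite direction, the intronic *Itgb5* region 7.18 kb into the gene (chr16:33836590-33837100) was called in every library except the treated EpRas ones, a pattern of 0.0672% of all regions. It kept the pattern with lists of equal length, where 0.356% of all regions had it. The other region lost with TGF-β in EpRas cells lay at the *Lamb3* locus in *Traf3ip3* and was called in both untreated EpRas libraries alone, against 0.451% of all regions.

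**Figure D4:**
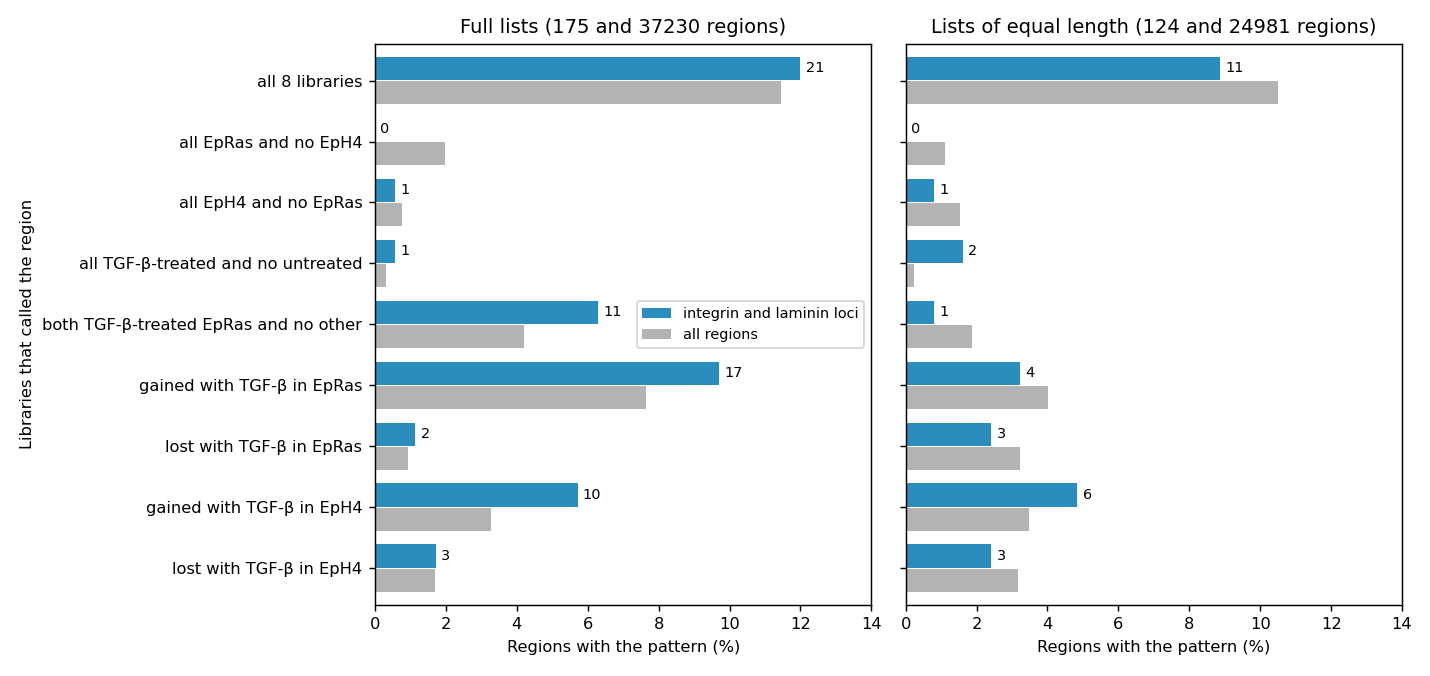
Share of regions (x axis, percent) with each library pattern (rows) at integrin and laminin loci (blue, with the number of regions) and among all regions (grey), for full lists and for lists of equal length. The 11 regions found in both TGF-β-treated EpRas libraries alone became 1 with lists of equal length, and it was not one of the 11.

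The 21 regions called in every library lay in 14 loci, among them 4 at *Itgb2* and 3 at *Itga3*. Only 2 of the 21 were promoter regions of the member gene itself, *Itga3* and *Itgb2*. To compare strength where every library had a peak, the score was ranked among the 4259 regions called in all 8 libraries. By this rank 0 of the 21 regions were higher in all EpRas libraries, against 4.27% of these regions, and 1 was lower, against 4.53%. It was the region at the start site of *Qars*, a tRNA synthetase gene, in the *Lamb2* locus. Its percentiles were 54.6, 50.2, 31.3 and 56.8 in EpH4 libraries and 26.5, 22.0, 8.70 and 27.1 in EpRas libraries (two-sided p = 0.0286 by the exact permutation test, and 0.324 after adjustment over 4259 regions). Between the treatments 0 of the 21 were higher (1.36% of these regions) and 0 lower (1.29%), with 0 at an unadjusted p under 0.05 by the exact permutation test. The strongest of the 21 by median was the promoter region of the histone gene *H3f3b* in the *Itgb4* locus, at percentiles of 60.4 to 97.2.

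**Figure D5:**
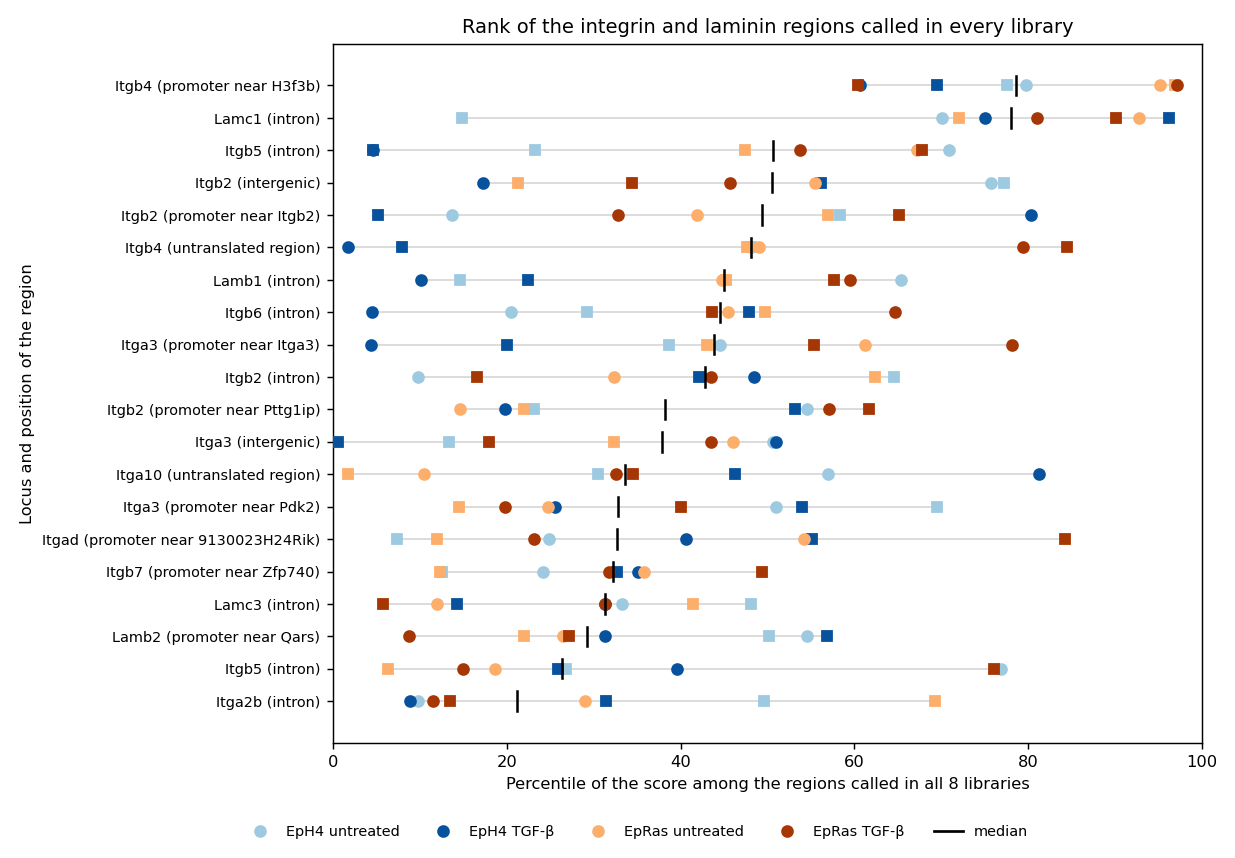
Percentile of the score (x axis) of 20 regions called in every library (rows), with circles for replicate 1, squares for replicate 2 and black bars for the median. At *Lamb2* the EpRas libraries sit between 8.70 and 27.1 and the EpH4 libraries between 31.3 and 56.8.

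In the 300 bases around the midpoint, 72 of the 175 regions (41.1%) held a match to the AP1 letters on either strand, against 34.7% of all regions. Among promoter regions 17 of 53 (32.1%) had a match, against 14.3% of all promoter regions, and among the others 45.1% against 44.2%. ETS letters were found in 14.3% against 12.3% of all regions, and RUNX letters in 9.71% against 11.5%. Of the 11 regions called in treated EpRas cells alone 7 held the AP1 letters (63.6%), against 53.9% of all regions with this pattern. The mean G and C content of the windows was 52.0 ± 8.90% (SD over 175 regions), against 50.0 ± 9.59% for all regions. These shares describe the letters and were not tested.

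Genes that work with integrins and laminins were compared in the same way. Of 22 partner genes (basement membrane and other laminin receptors, hemidesmosome parts and integrin adaptors), all had a peak in their locus. With full lists 1 was higher in all EpRas libraries, *Ptk2*, which encodes focal adhesion kinase, against 4.27% of all loci. A further 2 were lower, *Col17a1*, a hemidesmosome collagen, and *Zyx*, a focal adhesion protein, against 0.552%. *Ptk2* held 5, 5, 5 and 4 peaks in EpH4 and 7, 6, 10 and 8 in EpRas libraries. *Col17a1* held 1 peak in each EpH4 and 0 in each EpRas library, and *Zyx* held 2, 2, 4 and 3 against 1 in each (exact permutation test, p = 0.0286 and adjusted p = 0.593 for each of these loci). The wider neighborhoods of the partner loci are not given here, so these differences are not shown to be particular to the genes. At equal list length *Col17a1* and *Zyx* were still lower (2.26% of all loci) and *Ptk2* overlapped. *Plec*, the hemidesmosome linker plectin, was then higher (2.21% of all loci). Between the treatments 0 of the 22 were called in either direction, against 0.394% of all loci higher and 0.0444% lower with full lists. Within EpRas cells 4 were higher with TGF-β (12.0% of all loci), namely *Plec*, *Ptk2*, *Lims1* and *Tln2*, the last 2 encoding integrin adaptors. With lists of equal length 3 were higher, *Tln2*, *Pxn* and *Fermt2* (4.88%), and 3 lower, *Nid1*, *Dst* and *Fermt3* (7.29%).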

How the data were processed

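The deposited FAIRE-seq files were 8 peak lists, 1 per library, with position, name and score. Per the labels and the study's methods, the authors aligned Ion Proton reads to mm10 by Bowtie2 and used MACS2 (version 2.0.9 in the submitters' processing notes) on each library alone. No source says which quantity the deposited score is, and it was therefore used for ranking and filtering only. The use of a control and of duplicate reads, and the Bowtie2 version, were not given in the sources used here.

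Here, peaks overlapping a locus by 1 bp were counted (Python 3.11.15, numpy 2.4.6, scipy 1.17.1), lists were merged at 1 bp, and groups were compared by exact permutation over 70 assignments with Benjamini-Hochberg adjustment over 15756 loci. The steps were tested on simulated data. Alternatives were lists of equal length, a score limit at the pooled median (15.5), flanks of 2 and 50 kb, midpoints inside the locus, peaks per 10000 peaks of the list, merging at 100 bp, a promoter window of 1 kb, a replicate block and leaving out each library. The ranking of regions called in all 8 libraries and the comparisons of peak numbers per locus within a line were added after seeing the data. Given with the value in every library were called genes and a set list of epithelial and mesenchymal receptors and laminin chains. Some items are not reported here. Members and lists were chosen with earlier results of these data known.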

Additional observations from a re-analysis of the deposited data

How the results depend on the processing

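The lists gave no read depth, so a missing peak does not show a closed site, and counts of 0 to 10 peaks with 2 libraries per group allow few distinct values. With lists of equal length, loci lower in EpRas cells went from 0 to 3 and higher ones from 0 to 1, loci higher with TGF-β from 1 to 0, regions called in treated libraries alone from 1 to 2, gained regions from 17 to 4 in EpRas and from 10 to 6 in EpH4 cells, promoters called in all 8 libraries from 2 to 1 and loci without a peak from 5 to 9. The mean difference then changed sign between the lines at *Itga3* (-0.25 peaks) and *Itga7* (-0.50), and between the treatments at *Itgav* (-0.75), *Itgb6* and *Lama3* (-0.50 each). With the stricter score limit 1 locus and 2 regions were higher or called in EpRas cells alone, gained regions were 8 in EpRas and 4 in EpH4 cells, lost regions in EpRas cells 0, promoters called in all 8 libraries 0 and loci without a peak 8, and *Lamb3* changed sign between the treatments (0.50). A flank of 2 kb gave 1 locus lower in EpRas cells, 0 higher with TGF-β, 0 regions in EpH4 cells or in treated libraries alone and 1 lost in EpRas cells. A flank of 50 kb gave 1 locus and 1 region for EpRas cells and 4 lost regions. Per 10000 peaks of the list, 5 loci were lower in EpRas cells. A promoter window of 1 kb gave 0 promoters called in all 8 libraries. The cause was not tested beyond what each setting changes by its construction. Shares of all loci or regions are not given for the stricter limit, the flanks or the left-out libraries. Those counts describe the settings and do not set these genes apart.

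Leaving out 1 library loosens each criterion by construction. It gave 0 to 3 loci higher and 0 to 2 lower in EpRas cells, 1 to 6 higher and 0 to 0 lower with TGF-β, 0 to 5 regions in EpRas cells alone (5 without untreated EpRas replicate 2), 1 to 3 in EpH4 cells alone, 1 to 3 in treated and 0 to 1 in untreated libraries alone. Gained regions were 17 to 47 in EpRas cells (32 without untreated replicate 1 and 47 without treated replicate 2) and 10 to 33 in EpH4 cells (16 without untreated replicate 1 and 33 without treated replicate 2). Lost regions were 2 to 10 and 3 to 12. Promoters called in all 8 libraries were 2 to 2, and loci without a peak 5 to 8 (8 without treated EpRas replicate 1).

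Replicates of different groups share numbers in the labels. Deviations of same-numbered libraries correlated at -0.0545 to 0.0022 in the presence of regions, with 0 of 6 pairs of groups over 0.1. In peaks per locus they correlated at -0.0119 to 0.351, with 3 of 6 over 0.1. With lists of equal length the peaks per locus gave -0.0157 to 0.0527, with 0 of 6 over 0.1. The main comparisons did not pair the libraries, although the full-list peaks per locus passed 0.1 in these 3 pairs of groups. With a replicate block, 1 locus (*Lama5*) was lower in EpRas cells in place of 0, and the block left the other counts it was applied to as they were.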
